A study of Mus musculus with 768 samples.

Results

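Vascular cancer-associated fibroblasts (vCAFs) are mesenchymal cells of the tumor that carry genes of the mural cells around blood vessels. Among the wells classed here as vCAF-like, cells with reads of *Fabp4* were compared with cells without any. *Fabp4* (chr3:10204342-10208616, mm10) encodes a small cytosolic protein that binds long-chain fatty acids, best known from fat cells, macrophages and the endothelium of small vessels. A well was kept if it held at least 10000 reads of mouse genes and at least 1000 detected genes. It was called vCAF-like if V, the mean log2(RPKM + 1) of *Rgs5*, *Higd1b*, *Kcnj8*, *Rgs4*, *Abcc9* and *Gja4*, was at least 4 and larger than M, the same mean of *Dcn*, *Lum*, *Mfap5*, *Olfml3*, *Smoc2* and *Serpinf1*, genes of the matrix-type fibroblasts (mCAFs). Cells with at least 5 *Fabp4* reads were Fabp4-positive and cells with 0 were Fabp4-negative. The members were thus chosen by measured values, the *Fabp4* reads and the genes of V and M, and these are given below as a description. Of 768 wells, 717 were kept and 496 were vCAF-like, of which 346 were Fabp4-positive, 120 were Fabp4-negative and 30 with 1 to 4 reads entered neither class.

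All wells came from 1 group. They held single EpCAM-, CD45-, CD31- and NG2-negative cells, sorted from 2 mammary tumors of mice aged 14 weeks, for which no treatment is named, of the strain FVB/N-Tg(MMTVPyVT)634Mul/J and sequenced by Smart-seq2. The sources used here do not say whether the tumors came from separate mice. In this strain the polyoma virus middle T oncogene is driven by the mouse mammary tumor virus promoter, which is active in mammary epithelium. Each tumor filled 1 plate, so tumor and plate cannot be told apart, and the tumor is the replicate (n = 2 tumors) for everything below. The median kept well had 220463 reads of mouse genes in tumor 1 (lowest 10281, highest 838772). In tumor 2 the median was 202630 (lowest 11175, highest 1190516).

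Fatty acid-binding proteins carry lipids between the plasma membrane, where the scavenger receptor CD36 helps fatty acids enter, and the mitochondria, lipid droplets and nucleus of the cell. Mural cells comprise pericytes of capillaries and smooth muscle cells of larger vessels, and the latter are marked by genes of the contractile apparatus such as *Acta2*, which encodes alpha-smooth muscle actin. The comparison therefore asks which other genes differed between vCAF-like cells with and without *Fabp4*, in particular genes of lipid handling, of fat cells, of endothelium and of the contractile apparatus.

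In tumor 1, 191 of 261 vCAF-like cells were Fabp4-positive (73.2%, 95% exact binomial interval 67.4 to 78.5). In tumor 2, 155 of 235 were (66%, interval 59.5 to 72). These intervals treat the cells of a tumor as independent draws and do not cover the spread between tumors. Smart-seq2 reads carry no molecular identifiers, so read counts are not counts of molecules. *Fabp4* was thus read in most vCAF-like cells of both tumors. The median Fabp4-positive cell held 59 *Fabp4* reads in tumor 1 (RPKM 436) and 67 in tumor 2 (RPKM 518), and the highest held 1708 and 890. Few cells lay right at the limits of the rule. Only 4 vCAF-like cells had exactly 5 *Fabp4* reads and 2 had exactly 4, whereas 22 of the 30 cells in neither class had a single read. A wider range of 5 to 19 reads held 65 cells, and the number of genes called depended on this limit, as given below. V lay between 4 and 5 in 5 vCAF-like cells, and 1 further kept well with V above M had V between 3 and 4. V exceeded M by under 1 in 3 vCAF-like cells, and M exceeded V by under 1 in 7 kept wells with V of at least 4. With every cell thinned to 50000 reads, which left out 7 and 11 shallower cells, 74% and 67.4% of vCAF-like cells kept at least 1 *Fabp4* read, against 79.3% and 71.9% unthinned.

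The kept wells that were mCAF-like, with M of at least 4 and above V, gave the background. At least 1 *Fabp4* read was found in 17.7% of 96 such wells in tumor 1 (10.7 to 26.8) and in 14.4% of 90 in tumor 2 (7.92 to 23.4), although their median depth of 262024 and 232394 reads was above that of the vCAF-like cells (202729 and 191893). At least 5 reads were found in 1 and 4 of these wells (1.04% and 4.44%). The 35 kept wells of neither kind held 3 and 2 more with at least 5 reads. A few *Fabp4* reads were thus also found in wells of another kind, and vCAF-like cells with 1 to 4 reads were left out of both classes. Mean log2(RPKM + 1) of *Fabp4* was 6.57 and 6.05 in vCAF-like cells, and 0.52 and 0.67 in mCAF-like wells. With 4 and 6 Fabp4-positive wells outside the vCAF-like cells, of which tumor 1 had fewer than the minimum of 5 set for a fit, the same comparison could not be fitted there.

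**Figure D1:**
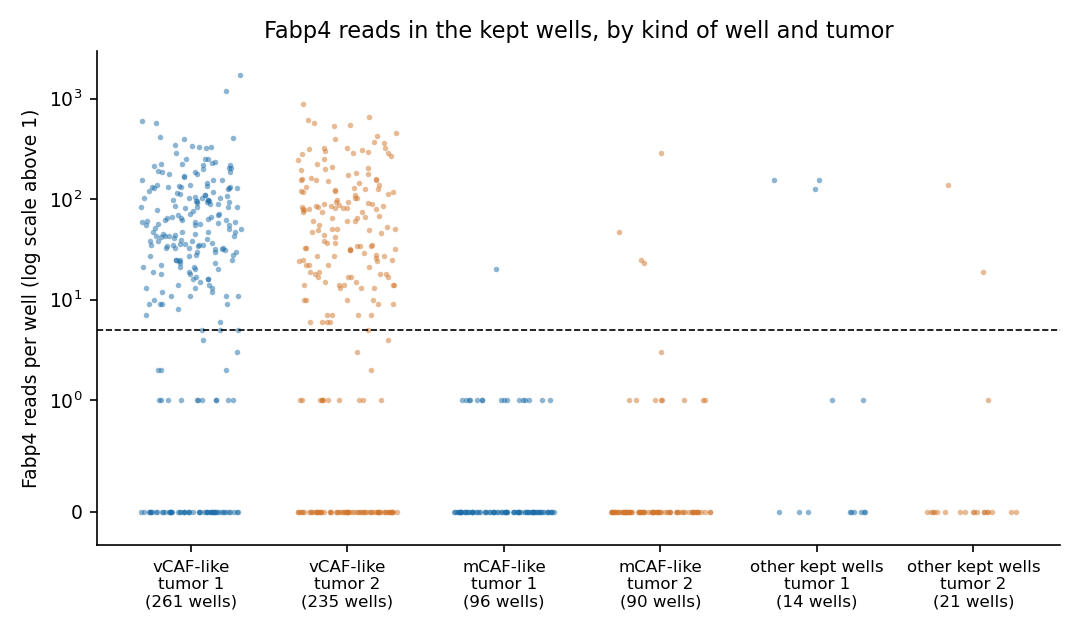
Fabp4 reads in each kept well (y axis, log scale above 1) for vCAF-like, mCAF-like and other kept wells of tumor 1 (blue) and tumor 2 (orange), 1 point per well, with the limit of 5 reads dashed. Most vCAF-like points lie above the limit with medians of 59 and 67 reads among the positive cells, a second band lies at 0, and 1 and 4 mCAF-like wells lie above it.

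Depth and complexity differed little between the classes. Median endogenous reads were 208584 in Fabp4-positive and 186766 in Fabp4-negative cells of tumor 1, and 195239 and 191032 in tumor 2. Median detected genes were 4037 and 4130 in tumor 1, and 4318 and 4104 in tumor 2. ERCC spike-ins took a median of 14.5% and 13.1% of reads in tumor 1 and 12.2% and 12.5% in tumor 2. The share of cycling cells, with a mean log2(RPKM + 1) of *Top2a*, *Birc5*, *Ccnb2*, *Cdk1*, *Ube2c* and *Mki67* of at least 2, was 9.95% of Fabp4-positive and 13% of Fabp4-negative cells in tumor 1, and 14.2% and 7.58% in tumor 2, so its order differed between the tumors.

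Both classes carried mural genes outside the rule. Platelet-derived growth factor receptor beta, *Pdgfrb*, was at 3384 CPM (counts scaled to a library total of 1000000) in Fabp4-negative and 2643 in Fabp4-positive cells of tumor 1, and at 3435 and 2659 in tumor 2. *Cspg4*, which encodes the NG2 protein used in the sort, was at 423 and 344 CPM in tumor 1 and at 476 and 486 in tumor 2. The cells thus held *Cspg4* RNA in both classes although they had been sorted as NG2-negative.

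Markers of other cells bear on how the classes can be read. Of 6 adipocyte markers, *Adipoq*, *Cidec*, *Lep*, *Retn* and *Cfd* had no read in any of the 466 cells compared, and the list summed to 0 CPM in 3 of the 4 libraries and to 0.0617 in the Fabp4-positive cells of tumor 2, all of it *Plin1*. Of 8 endothelial markers, *Pecam1* and *Cdh5* had no read, and *Tie1* and *Cldn5* were at or under 0.0926 CPM. *Emcn* made up most of the endothelial sum of 54.7 to 260 CPM and was not ordered alike in the tumors, at 47.4 and 136 CPM in Fabp4-negative and Fabp4-positive cells of tumor 1 and at 252 and 181 in tumor 2. The 4 macrophage and immune markers summed to 0.895 to 9.37 CPM. The 4 epithelial markers summed to 4.7 and 4.9 CPM in tumor 1 and to 55.6 in Fabp4-negative and 26.7 in Fabp4-positive cells of tumor 2. The mCAF genes of the rule summed to 879 CPM in Fabp4-negative and 155 in Fabp4-positive cells of tumor 1, and to 430 and 267 in tumor 2, with all 6 genes read in each library. Most of the difference in tumor 1 was in *Serpinf1* (498 and 55.4 CPM) and *Smoc2* (214 and 6.01), while *Mfap5* was at 4.7 and 10.7 there and *Olfml3* at 57.9 and 58.3 in tumor 2. The 4 further mCAF markers (*Pdgfra*, *Fbln1*, *Fbln2* and *Cxcl14*) summed to 78.2 and 31.1 CPM in tumor 1 and to 86 and 109 in tumor 2, in opposite order. Median M was 2.12 and 0.84 in tumor 1 and 1.25 and 0.77 in tumor 2. The part of this difference in the results below was not tested. Each gene named was also fitted in the cells whose M was under 2 (24 and 52 Fabp4-negative, 163 and 126 Fabp4-positive cells), a choice made after M was seen to differ.

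Counts were summed over the cells of each class in each tumor, and the 4 libraries were compared with edgeR, with the tumor as a term. Of 11189 genes tested besides *Fabp4*, 2 were higher in Fabp4-positive cells at an adjusted p of at most 0.05 (0.0179% of the genes tested) and 0 were lower (0%). Without the tumor term 0 genes were called, with 770 at an unadjusted p under 0.05. With 2 tumors the fit has 1 residual degree of freedom of its own. By edgeR 496 genes were higher and 421 lower at an unadjusted p under 0.05, and DESeq2 called 125 higher (1.12%) and 106 lower (0.947%) on the same libraries. Because 0.05 was passed by so few genes, differences are also described by size, a rule chosen after the results were seen and used with no test. By this rule 305 genes were at least 2-fold higher in the Fabp4-positive cells of both tumors (2.73%) and 167 at least 2-fold lower (1.49%). Genes were tested if their mean RPKM over all vCAF-like cells was at least 1, and 346 of these 496 cells were Fabp4-positive. Genes read mainly in Fabp4-positive cells thus passed this filter more readily than the reverse, which bears on the counts of both directions. Among the genes named below, *Cd36*, *Prelp* and *Amigo2* had from 0 to 10 reads in each Fabp4-negative library. The median log2 fold change over all genes tested was 0.03.

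*Cd36* (chr5:17781690-17888959) rose in Fabp4-positive cells. This gene for the fatty acid translocase and scavenger receptor was at 0.94 CPM in Fabp4-negative and 215 in Fabp4-positive cells of tumor 1, and at 0.243 and 34.3 in tumor 2. The fold change was 7.61 on the log2 scale (SE 0.42, edgeR adjusted p = 0.00176), from differences of 7.71 and 6.72 in the tumors. The summed Fabp4-positive libraries lay above the Fabp4-negative ones in both tumors, but the cells themselves overlapped, since most cells of either class had no *Cd36* read. A *Cd36* read was found in 29.8% and 7.1% of Fabp4-positive and in 16.7% and 3.03% of Fabp4-negative cells, and no Fabp4-negative cell had more than 2. At least 5 *Cd36* reads were found in 44 vCAF-like cells of tumor 1, of which 43 were Fabp4-positive and 1 was in neither class, and in 7 of tumor 2, all Fabp4-positive. In tumor 2, 1 cell gave 67.6% of the *Cd36* reads of its class, and without it the level was 11.3 CPM. In mCAF-like wells *Cd36* was at 0.202 and 3.3 CPM. With M under 2 the log2 fold change was 7.59 (edgeR adjusted p = 0.0491), and over all 15 alternative fits the adjusted p ran from 1.02e-35 (DESeq2) to 0.337 (no tumor term).

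*Prelp* (chr1:133910304-133930102), which encodes a small leucine-rich proteoglycan of connective tissue, also rose. Its level was 0.188 CPM in Fabp4-negative and 91.5 in Fabp4-positive cells of tumor 1, and 0.809 and 58.3 in tumor 2. The fold change was 7.16 on the log2 scale (SE 0.67, edgeR adjusted p = 0.0438). As with *Cd36*, the difference came from a minority of cells, since 27 and 9 Fabp4-positive cells and no Fabp4-negative cell held at least 5 *Prelp* reads. Unlike *Cd36*, *Prelp* was high in mCAF-like wells, at 201 and 291 CPM. The call was held in 5 of 15 alternative fits, against 12 of 15 for *Cd36*, and with M under 2 the log2 fold change was 7.09 (edgeR adjusted p = 0.208, at most 0.322 over the alternatives).

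**Figure D2:**
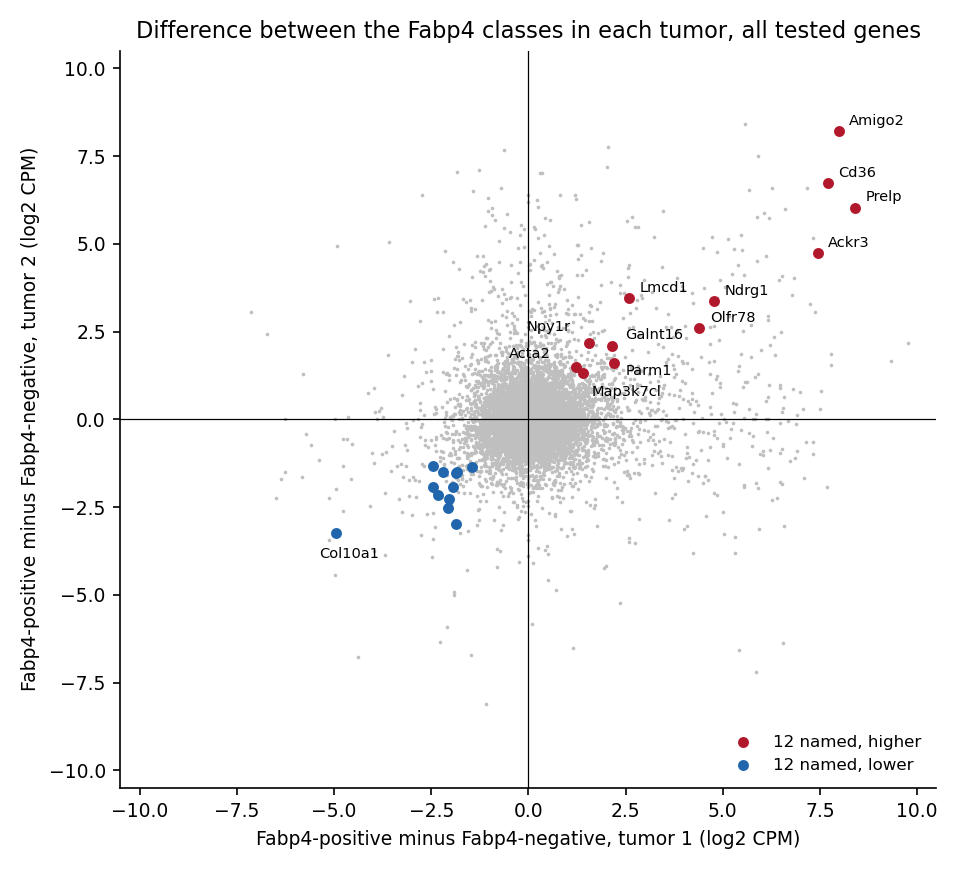
Difference in log2 CPM between Fabp4-positive and Fabp4-negative vCAF-like cells in tumor 1 (x axis) and tumor 2 (y axis), 1 grey point per tested gene, with the 12 named genes of each direction in red and blue. Cd36 (7.71 and 6.72) and Prelp (8.40 and 6.03) are the genes that passed the test, and most genes lie around 0.

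The other 10 genes named for a higher level in Fabp4-positive cells did not pass, with edgeR adjusted p from 0.0584 to 0.0587. *Acta2* (chr19:34240336-34255585) was at 2531 CPM in Fabp4-negative and 5891 in Fabp4-positive cells of tumor 1, and at 1770 and 4991 in tumor 2. Its log2 fold change was 1.36 (SE 0.17, edgeR adjusted p = 0.0584), and it was read in 92.4% to 98.4% of the cells of every class. The summed level thus differed with little difference in the share of cells with a read. Mean log2(RPKM + 1) of *Acta2* was 7.81 in Fabp4-negative and 9.47 in Fabp4-positive cells of tumor 1, and 6.99 and 8.52 in tumor 2. Shares of cells at higher *Acta2* levels were not compared. *Olfr78* (chr7:102740721-102759471), an olfactory receptor known from vascular smooth muscle, was at 8.74 and 187 CPM in tumor 1 and at 29.5 and 180 in tumor 2. A read of it was found in 5.56% and 28.8% of Fabp4-negative and Fabp4-positive cells in tumor 1 and in 10.6% and 27.7% in tumor 2. *Npy1r*, the Y1 receptor for the vasoconstrictor neuropeptide Y, was at 49.4 and 145 CPM in tumor 1 and at 31.6 and 141 in tumor 2. For each of these 3 genes the Fabp4-positive library was the higher in both tumors, as the choice of named genes required.

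*Parm1*, a mucin-like membrane protein, had a log2 fold change of 1.90 (SE 0.22), with 70.8 and 323 CPM in tumor 1 and 75.7 and 232 in tumor 2. *Galnt16*, of the enzymes that start O-linked glycans, had 31 and 139 CPM in tumor 1 and 25.7 and 111 in tumor 2. *Map3k7cl* had 126 and 332 CPM, and 84.1 and 210. *Lmcd1*, a LIM-domain cofactor, had 15.3 and 93.2 CPM, and 4.37 and 48.5. These 4 genes were read in 27.7% to 68.6% of the Fabp4-positive cells of each tumor. In mCAF-like wells *Parm1*, *Galnt16* and *Map3k7cl* were lower than in vCAF-like cells of both tumors, while *Lmcd1* was at 50.6 against 73 CPM in tumor 1 and at 44.7 against 36 in tumor 2.

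The remaining 3 rested on few cells. *Ackr3*, a scavenging receptor for the chemokine CXCL12, was at 0.376 and 80.1 CPM in tumor 1 and at 0.89 and 26 in tumor 2, and single cells gave 53.5% and 44.2% of the reads of the Fabp4-positive class. *Ndrg1*, a gene induced by low oxygen, was at 0.564 and 17.6 CPM in tumor 1 and at 10.6 and 111 in tumor 2, where 1 cell gave 77.9% of the reads. *Amigo2*, a leucine-rich repeat adhesion protein, had 0 reads in both Fabp4-negative libraries and 20.9 and 24.8 CPM in the Fabp4-positive ones. Against a floor of 3 counts per library it was at least 75.3-fold higher in tumor 1 and at least 103-fold higher in tumor 2, from reads in 23 and 17 cells.

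No gene fell at the threshold by edgeR. The 12 genes named for a lower level in Fabp4-positive cells had edgeR adjusted p from 0.0584 to 0.0667. *Mmp2* (chr8:92827290-92853421), the gelatinase that degrades basement membrane collagen, was at 699 CPM in Fabp4-negative and 195 in Fabp4-positive cells of tumor 1, and at 534 and 188 in tumor 2 (log2 fold change -1.67, SE 0.18). *F2r* (chr13:95601780-95618466), the thrombin receptor, was at 3038 and 553 CPM, and 1510 and 603 (-1.89, SE 0.27). *Dusp6*, a phosphatase that inactivates ERK and is itself induced by ERK signalling, was at 593 and 128 CPM, and 356 and 127 (-1.85, SE 0.22). In each case the Fabp4-positive libraries of both tumors lay below both Fabp4-negative libraries. All 3 were read in most cells of either class, except *Dusp6* in the Fabp4-positive cells of tumor 1 (49.2%).

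*Pamr1*, *Scube1*, *Lgi1*, *Nkd2* and *Col10a1* encode proteins that are secreted or, for the Wnt antagonist *Nkd2*, held at the membrane, and had log2 fold changes of -1.70, -1.93, -2.15, -1.39 and -4.10. *Col10a1*, the collagen of hypertrophic cartilage, was at 65.9 and 2.05 CPM in tumor 1 and at 93.6 and 9.86 in tumor 2, but 1 cell gave 80% of the reads of the Fabp4-negative class in tumor 1. *Plvap*, known from the diaphragms of fenestrated endothelium, was at 145 and 26.4 CPM, and 57.9 and 15.1 (-2.20, SE 0.30). A *Plvap* read was found in 74.1% of Fabp4-negative and 40.3% of Fabp4-positive cells of tumor 1 and in 50% and 16.8% in tumor 2, without reads of *Pecam1* or *Cdh5*. *Ch25h*, the enzyme that makes 25-hydroxycholesterol, had 103 and 20.2 CPM, and 44.3 and 9.83. *Abca8a* and *Abca9* are neighbouring, similar lipid transporter genes on chromosome 11 (starts 110025634 and 110100749) between which short reads may be split, and had log2 fold changes of -2.30 and -2.42. For *Abca9* the differences were -1.87 and -2.97 in the tumors, and 1 cell gave 61.5% of the Fabp4-negative reads of tumor 2.

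Of these 12 genes, 6 were at higher CPM in the mCAF-like wells than in the vCAF-like cells of both tumors, among them *Mmp2* (3434 and 3062 against 303 and 294) and *F2r* (2091 and 1902 against 1075 and 931), and 2 were lower in both. Of the 12 genes named as higher in Fabp4-positive cells, 3 were higher and 8 lower in mCAF-like wells. These counts cover the named genes only and were not set beside the shares over all genes tested. With M under 2, 9 of the 12 genes named as lower had a log2 fold change nearer to 0 by more than 0.1, and the other 3 (*Pamr1*, *Scube1* and *Abca9*) were within 0.1 of their value in all cells. The shift toward 0 was 1.72 for *Ch25h*, 1.69 for *Col10a1*, 1.31 for *Abca8a* and 0.55 for *Mmp2*. By edgeR the adjusted p of these 12 genes in that fit lay between 0.211 (*F2r*) and 0.999 (*Ch25h*). Of the 12 genes named as higher, 5 were nearer to 0 by more than 0.1 (among them *Olfr78* at 2.85 and *Map3k7cl* at 1.06), 4 were farther from it (among them *Acta2* at 1.77, edgeR adjusted p = 0.268) and 3 were within 0.1. All these genes had been picked by their p in the fit of all cells, so the shifts cannot be told apart from an effect of that choice. They were not set beside the shifts of all genes tested.

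**Figure D3:**
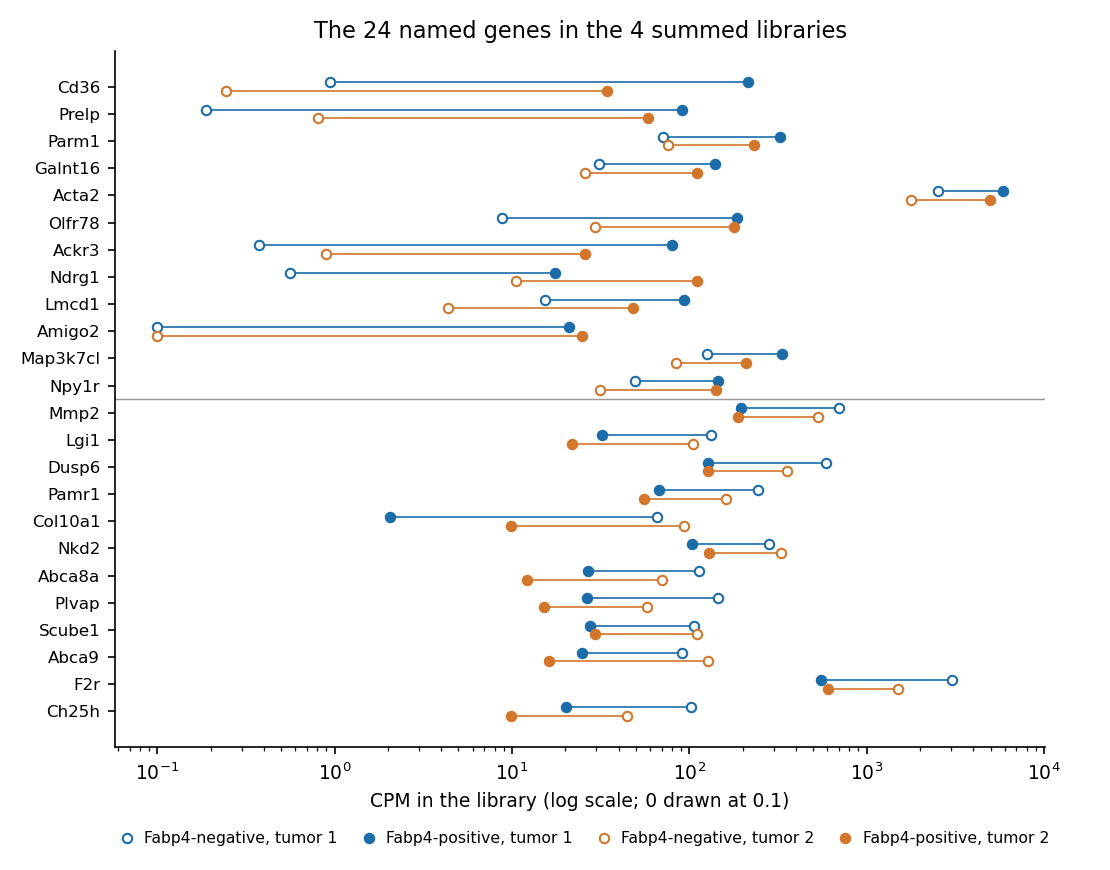
CPM (x axis, log scale, 0 drawn at 0.1) of the 12 genes named as higher (above the line) and the 12 named as lower (below it) in Fabp4-positive cells, with open circles for the Fabp4-negative and filled circles for the Fabp4-positive library of tumor 1 (blue) and tumor 2 (orange). Each filled circle lies to the same side of its open circle in both tumors, as the choice of these genes required. For Acta2 it lies at 5891 against 2531 and 4991 against 1770 CPM. Cd36 and Prelp alone passed the test.

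Contractile genes lay above 0 as a list. All 18 smooth muscle contractile genes were tested, and edgeR called 0 in either direction. By size, 8 were at least 2-fold higher in both tumors (against 2.73% of all genes) and 1 was at least 2-fold lower (against 1.49%), and the median log2 fold change was 1.07, with 1.16 and 1.13 in the tumors, against 0.03 over all genes. DESeq2 called 9 of them higher (1.12% of all genes) and 1 lower (0.947%). Summed over the list, the level was 6472 CPM in Fabp4-negative and 13753 in Fabp4-positive cells of tumor 1, and 5081 and 11483 in tumor 2. The myosin light chain *Myl9* was at 1014 and 2168 CPM in tumor 1 and at 702 and 1416 in tumor 2 (log2 fold change 1.05, SE 0.16, edgeR adjusted p = 0.0702). Among members picked after their values were seen, *Myh11*, the smooth muscle myosin heavy chain, was at 63.7 and 396 CPM, and 110 and 289, and the tropomyosins *Tpm1* and *Tpm2* had log2 fold changes of 1.27 and 1.17. *Itga8*, the alpha-8 integrin of smooth muscle and mesangial cells, was the member on the other side, at 154 and 62.4 CPM, and 92 and 15.2 (-1.94, SE 0.35, edgeR adjusted p = 0.13). *Acta2* and *Actg2* are near-identical in coding sequence, so reads may be split between them.

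The 23 mural cell markers had a median nearer to 0. By edgeR 0 were called, 0 were 2-fold apart in both tumors in either direction, and the median log2 fold change was 0.21 (0.39 and 0.03 in the tumors). By DESeq2, 3 were called higher (1.12% of all genes), among them the rule gene *Rgs5*, and 0 lower. Genes of the rule are in this list, so its counts and medians are partly a description of the rule. *Rgs5*, a regulator of G protein signalling and part of the rule, was at 7066 and 14138 CPM in tumor 1 and at 9484 and 11409 in tumor 2. *Higd1b*, also in the rule, was at 815 and 1068 CPM, and 1078 and 1146. The other 4 rule genes had log2 fold changes from -0.13 (*Abcc9*) to 0.48 (*Gja4*). The difference between the contractile and the mural list was not tested.

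**Figure D4:**
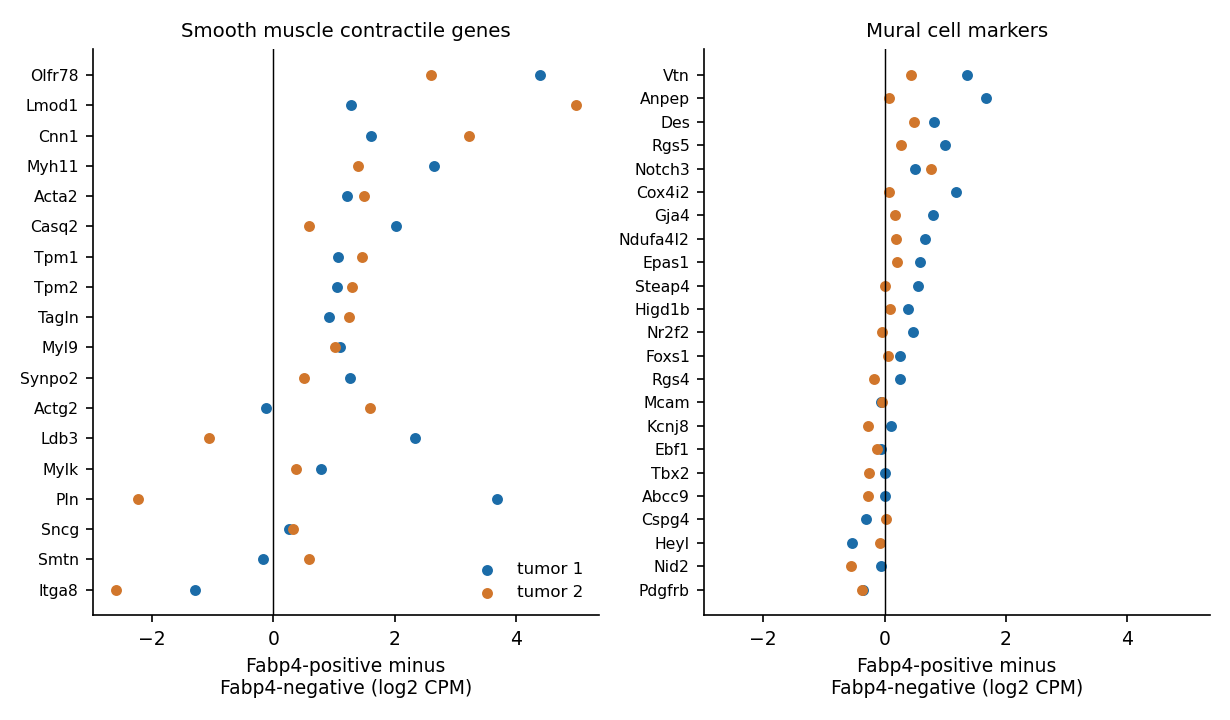
Difference in log2 CPM between Fabp4-positive and Fabp4-negative cells (x axis) for each smooth muscle contractile gene (left, 18 genes) and each mural cell marker (right, 23 genes), with 1 point for tumor 1 (blue) and 1 for tumor 2 (orange). Most contractile points lie to the right of 0 with medians of 1.16 and 1.13, while the mural markers lie around 0.39 and 0.03.

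Promoters of contractile genes are known for CArG boxes, the site of serum response factor. The RefSeq promoter table (GRCm38.p6, 250 bases before to 50 after the start) held 14 of the 18 genes. The box in its strict form, CC, then 6 bases of A or T, then GG, which reads the same on both strands, was found in 2 of them, *Myl9* and *Ldb3*, against 1.81% of 27025 genes with an entry. Shown 5′ to 3′ are the promoters of the contractile genes with the highest RPKM, *Acta2* (chr19:34255324-34255623, minus strand) and *Myl9* (chr2:156775214-156775513, plus strand), with the box in capitals. No strict box was in the *Acta2* window. The window did hold ccctatatgg and ccttgtttgg, each with a single C or G among the 6 middle bases. Such looser forms were not counted in any gene, and other positions were not searched.
Acta2: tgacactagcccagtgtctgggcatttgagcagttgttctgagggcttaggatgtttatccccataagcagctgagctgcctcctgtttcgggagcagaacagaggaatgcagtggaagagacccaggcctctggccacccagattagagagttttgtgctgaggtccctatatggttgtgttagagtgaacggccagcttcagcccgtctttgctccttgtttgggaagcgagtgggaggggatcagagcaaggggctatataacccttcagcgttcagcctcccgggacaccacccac
Myl9: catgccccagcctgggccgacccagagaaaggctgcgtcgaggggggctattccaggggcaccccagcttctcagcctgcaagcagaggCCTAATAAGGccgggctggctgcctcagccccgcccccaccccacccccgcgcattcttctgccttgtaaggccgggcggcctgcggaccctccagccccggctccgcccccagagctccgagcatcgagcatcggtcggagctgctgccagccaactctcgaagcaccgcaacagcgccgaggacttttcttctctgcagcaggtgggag

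Among the lipid lists, edgeR called *Cd36* and no other gene. Of 14 fatty acid-binding proteins and relatives besides *Fabp4*, 5 passed the filter on low values. By edgeR 0 were called, by DESeq2 1 was higher (*Fabp5*, 1.12% of all genes), and 2 were at least 2-fold higher in both tumors (2.73% of all genes), with a median log2 fold change of 0.27. *Fabp5*, the relative of *Fabp4* that lies on the same chromosome (chr3:10012585-10016610), was at 10.3 and 34.5 CPM in tumor 1 and at 27.7 and 68 in tumor 2 (log2 fold change 1.51, SE 0.37, edgeR adjusted p = 0.261). *Fabp9*, *Fabp12* and *Pmp2*, which lie closest to *Fabp4* among its relatives, were at or near 0 in every library, with at most 0.616 CPM. *Fabp7* had 0 reads in the Fabp4-negative libraries and 49 and 35 in the Fabp4-positive ones, from 2 and 3 cells.

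Of 18 genes of lipid uptake and transport, 15 were tested. By edgeR *Cd36* was called higher (0.0179% of all genes) and 0 lower, and DESeq2 called 1 higher (against 1.12%) and 3 lower (*Lpl*, *Acsl1* and *Lrp1*, against 0.947%). By size, 1 was at least 2-fold higher (against 2.73%) and 2 were at least 2-fold lower in both tumors (against 1.49%). The median log2 fold change of this list was -0.28, with per-tumor medians of 0.00 and -0.25. *Lpl*, the lipoprotein lipase that frees fatty acids from circulating lipid, was at 742 and 334 CPM in tumor 1 and at 475 and 226 in tumor 2 (-1.11, SE 0.17, edgeR adjusted p = 0.0702). *Acsl5*, which activates fatty acids with coenzyme A, was at 137 and 174 CPM, and 106 and 126. *Acsl1*, of the same family and picked after its values were seen, was the other member at least 2-fold lower in both tumors, at 32.2 and 10.8 CPM, and 37.7 and 4.09. Of 25 genes of lipid droplets and fatty acid use, 17 were tested, 0 were called by edgeR or DESeq2, 0 were 2-fold apart in both tumors, and the median was 0.08. *Acly*, which makes acetyl-CoA for lipid synthesis, was at 416 and 507 CPM, and 411 and 466, and the droplet coat protein *Plin2* was at 139 and 148, and 140 and 138.

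Regulators of fat cell formation were measured in both classes. Of 18, 16 were tested, 0 were called by edgeR and 1 by DESeq2 (*Dlk1*, higher, against 1.12% of all genes), 1 (*Klf15*) was at least 2-fold lower in both tumors (against 1.49%), and the median log2 fold change was -0.03. *Meox2*, a homeobox gene of mesenchyme and vessels, was at 184 and 278 CPM in tumor 1 and at 240 and 160 in tumor 2, with opposite order in the tumors. The liver X receptor *Nr1h3* was at 199 and 134 CPM, and 106 and 117. *Pparg*, the main regulator of adipogenesis and of *Fabp4* in fat cells, named here for that role, was at 28.3 and 30.1 CPM in tumor 1 and at 1.78 and 16.2 in tumor 2 (log2 fold change 1.55, SE 0.84, edgeR adjusted p = 0.752). Of 9 preadipocyte and adventitial markers, 4 were tested and 0 called by edgeR or DESeq2. *Icam1* was at 11 and 25.5 CPM, and 37.9 and 17.2, and *Ly6a* at 0.752 and 0.766, and 3.64 and 13.3.

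Of 18 endothelial markers, 7 were tested and 0 were called by edgeR. *Plvap* was called lower by DESeq2 (against 0.947% of all genes) and was the 1 member at least 2-fold lower in both tumors (against 1.49%), with a list median of -0.15. *Esam*, an adhesion molecule shared by endothelium and mural cells, was at 451 and 796 CPM, and 631 and 753. Of 17 Notch pathway genes, 13 were tested, 0 were called by edgeR and 2 by DESeq2 (*Notch3* and *Nrarp*, higher, against 1.12% of all genes), and 1 (against 2.73%), the feedback inhibitor *Nrarp*, was at least 2-fold higher in both tumors (39.5 and 146 CPM, and 35.2 and 95). *Notch3*, the receptor of mural cells, was at 606 and 855 CPM, and 565 and 956, and its target *Heyl* at 914 and 634, and 637 and 605. The list median was 0.04. Of 17 genes of VEGF, PDGF and angiopoietin signalling, 11 were tested, 0 were called by edgeR or DESeq2 and 1 was at least 2-fold higher (*Pdgfb*, against 2.73% of all genes), with a median of -0.23. *Pdgfa* was at 176 and 265 CPM, and 169 and 254.

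Matrix genes had medians below 0. All 22 interstitial matrix genes were tested, 0 were called by edgeR and 3 by DESeq2 (*Col6a1*, *Col6a2* and *Thbs2*, lower, against 0.947% of all genes). The rule gene *Lum* was at least 2-fold lower in both tumors (against 1.49%), with 91.6% and 64.7% of its Fabp4-negative reads from 1 cell in each tumor, and the median log2 fold change was -0.30, with -0.65 in tumor 1 and -0.06 in tumor 2. *Sparc* was at 9424 and 10580 CPM, and 7293 and 8686, and the proteoglycan *Bgn* at 8345 and 5377, and 5761 and 4512. The summed level of the list was 50281 and 42176 CPM in tumor 1, and 40351 and 40143 in tumor 2, so the classes were nearly alike in tumor 2. Of 15 basement membrane genes, 14 were tested, 0 were called by edgeR and 2 by DESeq2 (*Col15a1* and *Lama2*, lower, against 0.947% of all genes), and the median was -0.24. *Col4a1* was at 8657 and 5943 CPM, and 8091 and 6955, and *Col4a2* at 4159 and 2980, and 4241 and 3522.

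Levels were then followed along the number of *Fabp4* reads, as a description within the cells that the rule had ordered by this count. *Acta2* was at 2482, 2686, 3996, 5082 and 7574 CPM in cells of tumor 1 with 0, 1 to 4, 5 to 19, 20 to 99 and at least 100 *Fabp4* reads, and at 1767, 2041, 2336, 4660 and 6520 in tumor 2. *Mmp2* was at 686, 388, 239, 220 and 144 CPM, and at 533, 430, 334, 236 and 91.9. In both tumors the order of the 5 bins was thus the same for each gene. Both genes had been named for a difference between cells with 0 and with at least 5 *Fabp4* reads, which fixes part of this order. The bins are of raw reads and were not matched for depth. *Cd36* was at 0.922, 16.1, 9.62, 146 and 375 CPM in tumor 1 and 0.242, 0, 0.328, 3.77 and 75.1 in tumor 2. *Ackr3* and *Amigo2* were likewise at their highest in the last bin, at 183 and 43.6 CPM and at 29.5 and 47.4 CPM. Not every named gene had such an order in both tumors. *Prelp* was at 101 CPM in the bin of 20 to 99 reads and at 49.2 in the last bin of tumor 2, and *F2r* was at 1507, 2119, 1068, 516 and 493 there. The bin of 1 to 4 reads held only 16 and 14 cells. In it *Acta2* (2686 and 2041 CPM) was near the Fabp4-negative level.

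**Figure D5:**
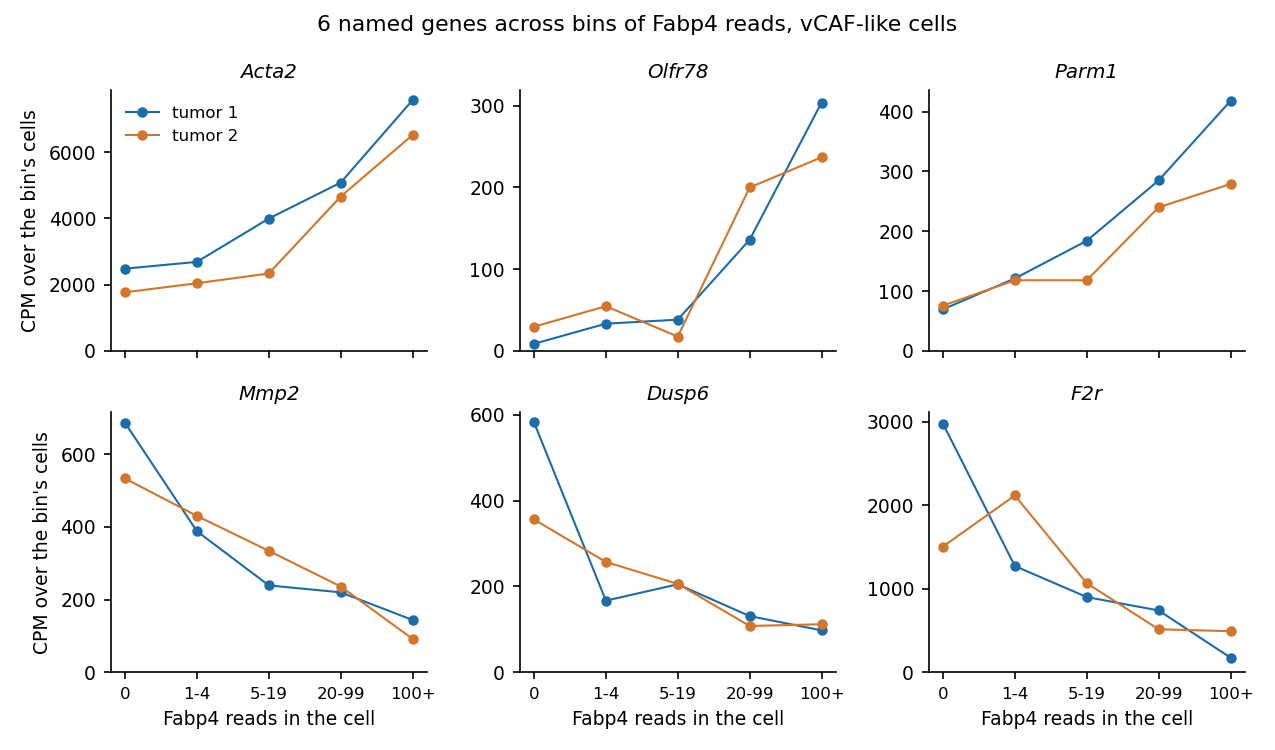
CPM over the vCAF-like cells of each bin of Fabp4 reads (x axis) for 6 named genes, in tumor 1 (blue) and tumor 2 (orange), with bins of 54 and 66, 16 and 14, 31 and 34, 98 and 67, and 62 and 54 cells. Acta2 runs from 2482 to 7574 and from 1767 to 6520 CPM, while Mmp2 runs from 686 to 144 and from 533 to 91.9.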

How the data were processed

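Single wells of both plates were sequenced with 43-base reads. Per the labels and the study's methods, the authors aligned reads to mm10 with STAR 2.3.0 and deposited 1 table of gene counts, ERCC spike-ins included, and 1 of RPKM values, which the authors computed with rpkmforgenes from RefSeq genes. Neither table corrects for amplification, and no columns were left unused (0). Plate names in the sample titles gave the tumor.

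RPKM values set V, M and the filter on genes (mean RPKM of at least 1 over vCAF-like cells), and deposited counts were summed over the cells of each class and tumor. The 4 sums were fitted with edgeR 4.0.16 (R 4.3.3, TMM, quasi-likelihood test, tumor as a term) with Benjamini-Hochberg adjustment over all genes tested, *Fabp4* left out. Since both classes came from the same tumor, the sums were paired. Their deviations from the class means correlated at r = 0.133 over 11190 genes. With 2 tumors, an exact permutation test cannot go below p = 0.5, so single values were given per tumor. P-values rest on how the class difference varied between these 2 tumors, with the error estimate shared across genes by the quasi-likelihood fit. They do not cover the spread among other tumors. Differences per tumor are log2 CPM with a prior count of 2.

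Named genes are the 12 with the smallest p in each direction and the same direction in both tumors, filled up with genes that did not pass, and from each list the called members and the 2 with the highest RPKM. Of these, 1 gene is not reported here. Members and lists were chosen with earlier results of these data known. Alternatives were DESeq2 1.42.0, other scalings, filters, thresholds, classes and subsets of cells. Coordinates are RefSeq, GRCm38.p6.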

Additional observations from a re-analysis of the deposited data

Results flagged for a closer look

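In data that the comparison did not use, 10 kept wells outside the vCAF-like rule held at least 5 *Fabp4* reads, from 19 to 291. Of these, 5 were mCAF-like, of which 4 also had V of at least 4, and the other 5 were of neither kind. A further 30 vCAF-like cells had 1 to 4 *Fabp4* reads and were in neither class. Their *Cd36* level was 16.1 CPM in tumor 1 and 0 in tumor 2, their *Olfr78* level 33.2 and 54.6, and their *F2r* level 1273 and 2119.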

How the results depend on the processing

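The direction of all 24 named genes was the same under every alternative, but their choice by p and direction and the reuse of mostly the same cells made this likely. The number of genes called was not stable. Against 2 in the reported fit, 0 genes were called with no replicate block (without the tumor term), with each cell scaled to the same total, with the stricter vCAF-like rule (V of at least 6 and above M by at least 2) and at an adjusted p of 0.001, and in these fits 0 members of any list were called, against 1. One call (1 gene) was left with no filter on genes, with a mean of at least 1 read per cell, with at least 1 *Fabp4* read, with at least 100000 reads, without cycling cells, without cells with reads of other cell types, and with M under 2, the last chosen after seeing the data. More genes were called with ERCC reads as library size (105, of which 18 in lists), at least 20 *Fabp4* reads (27, 8 in lists), cells thinned to 50000 reads (27, 10 in lists) and DESeq2 (231, 34 in lists). The cause was not tested. The share of Fabp4-positive cells was 79.3% and 71.9% at 1 read and 61.3% and 51.5% at 20 reads. *Cd36* lost its call without the tumor term (adjusted p = 0.337), with equal cells (0.211) and with the stricter rule (0.0993), all by edgeR. With 1 tumor left out there is a value with no test: *Cd36* differed by 6.72 on the log2 scale without tumor 1 and by 7.71 without tumor 2, *Prelp* by 6.03 without tumor 1, and 2 of 63 genes followed moved by more than their error in each case. The same comparison outside vCAF-like cells, and its difference from them, could not be fitted. The 54 and 66 Fabp4-negative cells limit genes read in few cells.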

Other observations

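Of 17 cycling genes, all tested, 0 were called by edgeR and 1 by DESeq2 (*Ube2c*, higher, against 1.12% of all genes). By size, 2 were at least 2-fold higher in both tumors (against 2.73%) and 0 at least 2-fold lower (against 1.49%). The median log2 fold change was 0.34, against 0.03 over all genes. The DNA clamp *Pcna* was at 82.6 CPM in Fabp4-negative and 86.4 in Fabp4-positive cells of tumor 1, and at 70.8 and 76.8 in tumor 2, and the cyclin *Ccna2* at 103 and 121, and 91.2 and 187. Of 23 chemokines and cytokines, 16 were tested, edgeR called 0, DESeq2 called 1 higher (*Ccl11*, against 1.12% of all genes) and 2 lower (*Ccl2* and *Il34*, against 0.947%), and the median was -0.30, with 0.55 and -1.10 in the tumors. *Il34*, a ligand of the macrophage growth factor receptor, was at 735 and 503 CPM, and 638 and 412, and *Cxcl1* at 105 and 339, and 186 and 160, with opposite order in the tumors. *Ccl2* and *Ccl11*, picked after their values were seen, recruit monocytes and eosinophils. *Ccl2* was at 375 and 83.1 CPM, and 227 and 94.1, and *Ccl11* at 126 and 254, and 55.4 and 133.

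The remaining lists had 0 calls by edgeR, and DESeq2 called 1 gene in each of 4 of them: *Ndrg1* and *Dusp1* higher (against 1.12% of all genes), *Irf1* and *Trf* lower (against 0.947%). Of 23 glycolysis and hypoxia genes 20 were tested, with a median of 0.03 (*Aldoa* 585 and 565 CPM, and 675 and 729, and *Ldha* 684 and 527, and 557 and 706). All 21 interferon and MHC class I genes had a median of -0.04 (*Ifitm3* 1494 and 1735 CPM, and 1991 and 1805, and *B2m* 2550 and 1719, and 2830 and 2357). All 20 immediate early and stress genes had a median of 0.16 (*Fos* 3864 and 4722 CPM, and 3328 and 3373, and *Egr1* 1647 and 1376, and 1570 and 1568). All 22 antioxidant genes had a median of 0.01 (*Gpx3* 1483 and 1251 CPM, and 1018 and 1127, and *Sod1* 223 and 225, and 251 and 227). Of 12 epithelial genes 8 were tested, with a median of -0.43, but 0.13 in tumor 1 and -1.03 in tumor 2 (*Lcn2* 14.3 and 12.5 CPM, and 189 and 79.1, and *Csn3* 27 and 31, and 136 and 95.5). Of 9 macrophage and immune genes 2 were tested, with a median of -2.16 (-2.51 and 0.02 in the tumors). *Lyz2* was at 0.564 and 0.0494 CPM, and 9.23 and 0.0305, from reads in 1 and 3 Fabp4-negative and 1 and 1 Fabp4-positive cells of the tumors.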
